A study of Sus scrofa with 14 samples.

Results

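PRLR, JAK2, STAT5A, STAT5B, ELF5 and CISH, the genes of the prolactin, STAT5 and ELF5 axis, were followed through the sow mammary gland. The list held 7 gene names, and a gene counted as a member when its name stood in the symbol column of the count files. Of the 7 names, 6 were found among 30071 listed gene identifiers, in all 10 gland, 2 milk and 2 section libraries. SOCS2 was not among them, so its RNA was not analysed here.

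Prolactin binds its receptor PRLR on mammary epithelial cells, and the receptor-bound kinase JAK2 then phosphorylates STAT5A and STAT5B, which move to the nucleus and switch on milk protein genes. ELF5, a transcription factor of the luminal epithelium, acts with STAT5 in the alveolar cells of pregnancy and lactation. CISH and SOCS2 are feedback inhibitors whose own genes are switched on by STAT5, so that CISH RNA is often read as a sign of STAT5 activity.

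The samples came from multiparous pigs (Sus scrofa) in their second breeding cycle, fed normal diets, with no treatment labelled besides the stage. Single nuclei were sequenced from frozen gland of 10 sows, 2 each on day 90 of gestation (G90), days 0 and 20 of lactation (L0 and L20), and days 2 and 7 of natural involution (PI2 and PI7). Whole cells were sequenced from 1 colostrum sample (L0) and 1 sample of mature milk (L20). Visium spatial spots were sequenced from 1 section at G90 and 1 at PI2. Sow 1 and sow 2 of a stage are named here by the replicate number in their labels. Each value of a gland is 1 animal and 1 piece of tissue, so differences between the 2 sows of a stage hold animal, tissue site and handling together. Milk and sections had 1 library per group, so no test between stages could be made in them.

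A level is given as CPM, the unique molecular identifiers (UMIs) of a gene per 1000000 UMIs of the summed nuclei, cells or spots. The glands held 126833 nuclei after filtering, 9332 to 18693 per library, with 18700704 to 53161349 UMIs per library and a median of 1382 to 2496 UMIs per nucleus. Nuclei were put in a class when they carried at least 2 different marker genes of that class and few UMIs of the others. This gave 45608 epithelial nuclei, 840 to 10545 per sow, or 36.0% of all, while 44.5% fell in no class. Pairs of gland libraries shared 52 to 205 barcodes, at most 1.23% of the smaller one. RNA of the milk proteins CSN2, CSN3 and LALBA set the 2 L20 glands apart from the L0 glands. Their summed level in the whole gland was 4994 and 4334 CPM at L0 but 635 and 41.2 CPM at L20, against 268 and 3358 CPM at G90, 109 and 865 CPM at PI2 and 74.0 and 107 CPM at PI7. The 2 libraries labelled day 20 of lactation were therefore low in milk protein RNA, and sow 2 of L20 had only 840 epithelial nuclei. Each L20 value below rests on these libraries, and the test results without each of them are given beside STAT5B and ELF5.

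STAT5 binds the palindrome TTCNNNGAA, where N is any base. The 250 bases upstream of the gene start in the RefSeq annotation of Sscrofa11.1 were searched for these letters on both strands, which read alike. Of 19559 such windows, 1196 or 6.11% held the palindrome at least once. Among the member genes it was found 237 bases before the start of CISH and 48 bases before the start of the RefSeq record of PRLR. No window of JAK2, STAT5A, STAT5B or ELF5 held it, which says only that these letters are not in those 250 bases. The window of CISH and that of the β-casein gene CSN2, a milk protein gene known as a STAT5 target, are shown. They are 2 genes of the output of the axis that held the palindrome. The windows of CSN3, LALBA and SOCS2 were searched as well and did not hold it. The palindrome is in capitals, the rest in lower case, 5′ to 3′ on the strand of the gene. The window of CISH is chr13:33090541-33090790 on the minus strand, and that of CSN2 is chr8:66922637-66922886 on the minus strand, with the palindrome 106 bases before the start.
CISH: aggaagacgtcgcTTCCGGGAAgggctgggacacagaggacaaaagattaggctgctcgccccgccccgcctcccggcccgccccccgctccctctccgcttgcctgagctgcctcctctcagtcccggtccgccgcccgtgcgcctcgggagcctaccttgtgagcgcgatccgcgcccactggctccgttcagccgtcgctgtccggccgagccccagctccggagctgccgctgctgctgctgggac
CSN2: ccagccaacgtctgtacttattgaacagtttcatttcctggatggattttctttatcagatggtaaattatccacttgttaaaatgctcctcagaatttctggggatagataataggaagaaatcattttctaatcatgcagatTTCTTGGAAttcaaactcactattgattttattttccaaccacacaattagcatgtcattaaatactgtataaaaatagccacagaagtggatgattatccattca

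CISH lies at chr13:33086280-33090540, JAK2 at chr1:216849744-217002310 on the minus strand and ELF5 at chr2:26443979-26486802 on the plus strand. STAT5A, at chr12:20474221-20498785 on the minus strand, and STAT5B, at chr12:20498103-20574365 on the plus strand, start next to each other and overlap by 683 bases. They are also close paralogs with long stretches of nearly the same coding sequence. The sources used here do not say how the deposited counts divided reads between them, so the level of either one is less certain than that of the other members. For PRLR the RefSeq record covers chr16:20637568-20655881, and whether it holds the first exon was not tested, so its upstream window is not shown.

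In epithelial nuclei no member passed the test between stages. Summed UMIs per sow were tested with edgeR's quasi-likelihood test in 1 fit over the 5 stages, and a gene was called at a Benjamini-Hochberg adjusted p under 0.05 and, for a pair of stages, an absolute log2 fold change over 1. Over any stage 0 of 6 members were called, against 35 of 18301 genes tested or 0.191%. At an unadjusted p under 0.05 there were 2 of 6 members, STAT5A and STAT5B, beside 2798 of the 18301 genes. DESeq2 called the same 2 members, beside 2209 genes in all.

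PRLR, the receptor, lay far apart in the 2 sows of some stages. Its epithelial level was 2650.02 and 1562 CPM at G90, 624 and 732 CPM at L0, 286 and 1415 CPM at L20, 2254 and 136 CPM at PI2, and 1177 and 1387 CPM at PI7. The L0 sows lay below both G90 sows, but the L20 sows lay far apart and the PI2 sows stretched over most of the range, with the lowest value of all in sow 2 of PI2 and the second highest in sow 1 of the same stage. The log2 fold change from G90 to L0 was -1.29 ± 0.97 (SE, n = 2 sows per stage, adjusted p = 0.641, edgeR), and the test over any stage gave an adjusted p of 0.836. After thinning each nucleus to 1000 UMIs, a PRLR UMI was seen in 78.6% and 67.0% of epithelial nuclei at G90, in 34.2% and 36.9% at L0, in 16.3% and 53.0% at L20, in 69.3% and 5.54% at PI2, and in 48.3% and 54.5% at PI7. The share of nuclei with the receptor thus ranked the sows much as the level did.

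JAK2, the kinase bound to the receptor, was lowest at G90. Its epithelial level was 121 and 82.7 CPM at G90, 173 and 187 CPM at L0, 183 and 187 CPM at L20, 161 and 141 CPM at PI2, and 229 and 189.5 CPM at PI7. Both G90 sows lay below the other 8. The log2 fold change from G90 to L0 was 1.15 ± 0.33 (SE, n = 2 sows per stage) with an adjusted p of 0.178 in edgeR, so the gene was not called, where 0.0656% of genes were. DESeq2 gave 1.19 with an adjusted p of 0.0305, a call. It also called many more genes in all than edgeR in this comparison, and the counts are given below. Over any stage the adjusted p was 0.348 in edgeR.

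STAT5A, the form of STAT5 best known for its part in alveolar development, was highest at G90. Its epithelial level was 1059 and 1010.2 CPM at G90, 377 and 278 CPM at L0, 389 and 111 CPM at L20, 574 and 434 CPM at PI2, and 140.2 and 309 CPM at PI7. The 2 G90 sows lay above all others, and the ranges of L0, L20 and PI7 overlapped. The log2 fold change from G90 to L0 was -1.36 ± 0.65 (SE, n = 2 sows per stage, adjusted p = 0.418, edgeR) and that from PI2 to PI7 was -1.30 ± 0.65 (SE, adjusted p = 1, edgeR). Over any stage the adjusted p was 0.265 in edgeR, 0.0318 in DESeq2, and 0.0214 in edgeR without the filter on low counts. Both alternatives called many more genes in all than the main fit, and the counts are given below.

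STAT5B, which shares most of its targets with STAT5A, was high at G90 and L0. Its epithelial level was 2077 and 1823 CPM at G90, 1865 and 1612 CPM at L0, 1047 and 735 CPM at L20, 1499 and 825 CPM at PI2, and 599 and 1014 CPM at PI7. All 4 sows of G90 and L0 lay above the 6 later ones. From L0 to L20 the log2 fold change was -1.27 ± 0.47 (SE, n = 2 sows per stage, adjusted p = 0.289, edgeR), where 0 of 18301 genes (0%) were called, 2440 passed an unadjusted p of 0.05, and DESeq2 called 894. Without sow 1 of L20 this change was -1.90, and without sow 2 it was -0.90, neither called. Over any stage the adjusted p was 0.263 in edgeR and 0.0316 in DESeq2.

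ELF5 was high at G90 and L0, with close values in the 2 sows of a stage there and at L20, and lay apart between the sows of PI2 and of PI7. Its epithelial level was 1117 and 1204 CPM at G90, 1320.2 and 1188 CPM at L0, 504 and 560.3 CPM at L20, 1313 and 169 CPM at PI2, and 602 and 1106 CPM at PI7. Both L20 sows lay below all 4 earlier ones, while the PI2 sows again spanned almost the whole range. The change from L0 to L20 was -1.59 ± 0.74 on the log2 scale (SE, n = 2 sows per stage, adjusted p = 0.387, edgeR), and over any stage the adjusted p was 0.634. Without sow 1 of L20 the change was -1.82, and without sow 2 it was -1.49. Only without sow 1 of PI2 did leaving out a gland bring ELF5, or any member, past the threshold over any stage. That fit held PI2 by sow 2 alone, the lowest sow at 169 CPM, so it had no spread between sows at that stage. The counts of all genes called when a gland was left out are given below.

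CISH, the feedback inhibitor, was scarce in epithelial nuclei. Its level was 6.84 and 11.3 CPM at G90, 11.9 and 6.98 CPM at L0, 10.3 and 5.17 CPM at L20, 4.81 and 9.64 CPM at PI2, and 8.11 and 3.13 CPM at PI7. The sows of all stages overlapped, and the adjusted p over any stage was 0.811 in edgeR. These levels rest on 22 to 401 UMIs per sow. CSN1S1, the gene of αS1-casein and another STAT5 target, was called over any stage in the same nuclei (adjusted p = 0.0387, edgeR). It was the only 1 of 53 tested pathway genes that was, where 0.191% of all genes tested were called. The test over any stage gives no direction. Under some of the alternatives given below no gene was called over any stage, so the call was lost there.

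**Figure D1:**
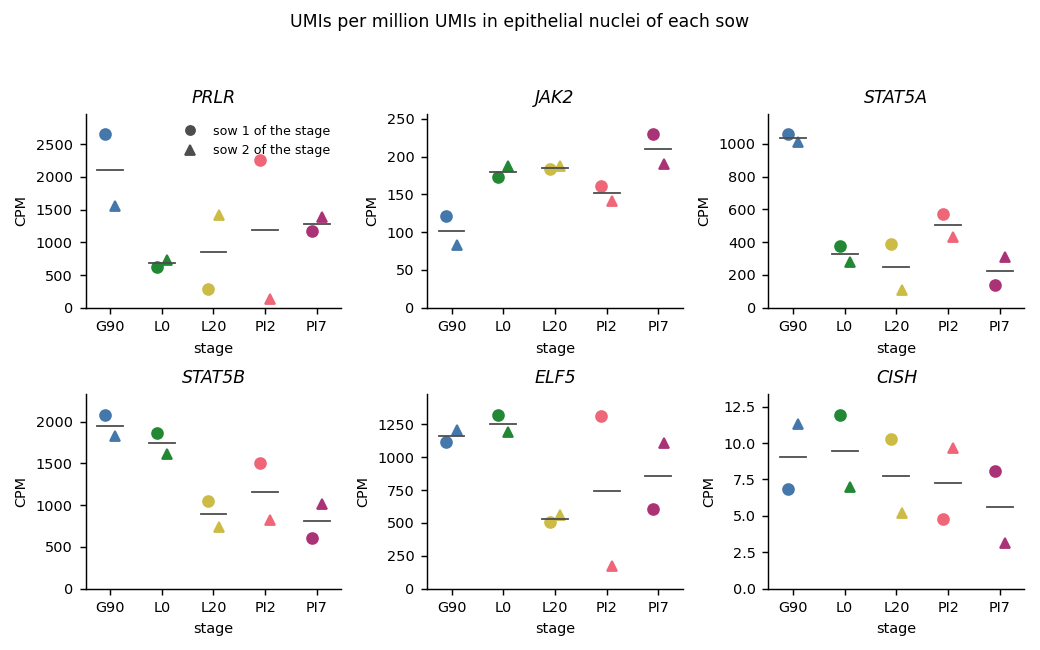
Level of the 6 genes in epithelial nuclei of each sow (CPM, linear axis from 0), by stage, with sow 1 as a circle, sow 2 as a triangle and the stage mean of n = 2 as a bar. The 2 PI2 sows lie far apart for PRLR (2254 and 136 CPM) and ELF5 (1313 and 169 CPM), and the G90 sows are the highest for STAT5A and the lowest for JAK2.

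For PI2 against L20, and likewise for PI7 against PI2, 0 of 6 members were called in epithelial nuclei, none had an unadjusted p under 0.05, and DESeq2 called 0. In these comparisons 0 of 18301 genes (0%) were called by edgeR, with 661 and 494 at an unadjusted p under 0.05. In the whole gland, the sum over all nuclei of a sow, 0 of 6 members and 0 of 22695 genes (0%) were called over any stage and between each of the 4 pairs of neighbouring stages. Fewer cells of a type and less RNA per cell cannot be told apart in these sums. At an unadjusted p under 0.05 the whole gland gave JAK2 from G90 to L0 (1.0 ± 0.42, log2, SE), STAT5B (-1.92 ± 0.75) and ELF5 (-2.50 ± 0.97) from L0 to L20, and PRLR from L20 to PI2 (1.93 ± 0.87). In these 3 comparisons 1652, 2912 and 817 of the 22695 genes passed the same limit. For PRLR, sow 2 of PI2 had the lowest whole-gland level of the 10 sows, 125 CPM. That sow thus lay below both L20 sows, so PRLR did not rise in both PI2 sows. DESeq2 called 0 of 6 members in each whole-gland comparison. The fall of epithelial nuclei to 840 in sow 2 of L20 stands beside the whole-gland values of that stage, and its part in them was not tested.

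Over any stage in the other classes of nuclei, 0 members were called by edgeR. The share of genes called was 0.00815% in fibroblast, 0.0501% in endothelial, 0.364% in myeloid, 0.373% in lymphoid and 0.0964% in myoepithelial nuclei, and 1 to 2 members had an unadjusted p under 0.05 in each. At that limit there were 662 of 12265 genes in fibroblast, 578 of 11968 in endothelial, 472 of 6593 in myeloid, 465 of 6706 in lymphoid and 460 of 7264 in myoepithelial nuclei. CISH had too few UMIs to be tested in fibroblast, myeloid and myoepithelial nuclei. DESeq2 was not run in these classes.

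Between cell classes most members differed. Classes were compared with epithelial nuclei of the same sow, with the sow as a block, over 13133 genes. PRLR, ELF5, STAT5A and STAT5B were called lower in all 6 other classes, where 20.9% (myoepithelial), 27.3% (fibroblast), 20.4% (mural, 3 sows), 27.4% (endothelial), 31.7% (myeloid) and 34.6% (lymphoid) of genes were called. Of 6 members, 4 were called in each of the first 4 classes and 5 in each of the 2 immune classes.

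PRLR had a median of 1282 CPM in epithelial nuclei of the 10 sows, with a lowest of 136 and a highest of 2650.02 CPM. Its median was 144 CPM in myoepithelial, 183 in fibroblast, 162 in endothelial, 76.5 in myeloid and 194 CPM in lymphoid nuclei. The lowest epithelial sow thus lay within the range of every other class, which reached 220.3 to 577 CPM, while the test compared classes within each sow. The log2 fold change against epithelial nuclei ran from -3.70 ± 0.48 (mural, SE) to -2.90 ± 0.24 (fibroblast), with adjusted p of 1.32e-08 and 7.31e-17 (edgeR).

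ELF5 had a median of 1111 CPM in epithelial nuclei, from 169 to 1320.2 CPM, and medians of 102 to 134 CPM in the 5 other classes with 10 sows. Its log2 fold changes ran from -3.502 ± 0.25 in myeloid to -3.12 ± 0.23 in fibroblast nuclei (SE, adjusted p = 3.21e-19 and 1.43e-18, edgeR). STAT5A had a median of 383 CPM in epithelial nuclei and 108 to 157 CPM in those 5 classes, with log2 fold changes of -2.12 ± 0.18 (myeloid) to -1.70 ± 0.17 (endothelial). STAT5B had 1273 CPM in epithelial nuclei and 267 to 386 CPM elsewhere, with log2 fold changes of -2.42 ± 0.16 (myeloid) to -1.73 ± 0.16 (endothelial).

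In single-nucleus data free RNA can give UMIs in nuclei that do not express a gene, so the levels outside the epithelium were set beside those of CSN2, a gene of secretory epithelium. In the 6 sows with at least 100 CPM of CSN2 in epithelial nuclei, the CSN2 level of another class was 0.0924 to 2.11 times that of the epithelial nuclei, the highest ratio from 8 UMIs in 23 lymphoid nuclei of sow 1 of L20. The ratio of PRLR was above that of CSN2 in 2 of 6 sows in each of the 5 classes, and that of ELF5 in 1 or 2 of 6. The other 4 sows could not be read, and the part of free RNA in these levels was not tested. The ratio of STAT5A was above it in 3 to 6 of 6 sows and that of STAT5B in 2 to 4 of 6, depending on the class. The epithelial markers had a median summed level of 345 CPM in lymphoid and 385 CPM in myeloid nuclei against 2982 CPM in epithelial nuclei, levels that the choice of nuclei by these markers partly sets.

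JAK2, which serves many cytokine receptors beside PRLR, was the member with the flattest spread over classes. Its medians were 178 CPM in epithelial, 184 in myoepithelial, 183 in endothelial, 251 in lymphoid, 253 in fibroblast and 377 CPM in myeloid nuclei. In myeloid nuclei it was 361 and 779 CPM at G90, 559 and 448 CPM at L0, 325 and 282 CPM at L20, 393 and 491 CPM at PI2, and 285 and 344 CPM at PI7, above the epithelial level of the same sow in 10 of 10. Some of these levels rest on few nuclei, 56 in sow 2 of G90 and 37 and 22 in the L0 sows. Sow 2 of L20, with 1775 myeloid nuclei, had the lowest level. The log2 fold change of JAK2 in myeloid against epithelial nuclei was 1.01 ± 0.20 (SE, n = 10 sows, adjusted p = 3.03e-05, edgeR), just past the fold limit of the call. It stayed between 0.83 and 1.17 when each gland was left out, and it fell under 1 without sow 2 of G90 (0.83), sow 1 of L0 (0.98), sow 1 of L20 (0.99), either PI2 sow (0.92 and 0.91) or sow 2 of PI7 (0.95), and with at least 3 myeloid markers per nucleus (0.98). With a single marker and no UMI of another list it was 0.17 (adjusted p = 0.815, edgeR). In fibroblast nuclei JAK2 was 0.63 ± 0.20 higher (log2, SE, adjusted p = 0.00613, edgeR), under the fold limit.

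CISH was the only member that was higher in lymphoid than in epithelial nuclei by the call. Its lymphoid level was 37.1 and 107 CPM at G90, 61.3 and 29.5 CPM at L0, 0 and 8.79 CPM at L20, 26.8 and 126 CPM at PI2, and 25.9 and 13.4 CPM at PI7. In 9 of 10 sows the lymphoid nuclei lay above the epithelial nuclei of the same sow. The exception, sow 1 of L20, had 0 CISH UMIs in 23 nuclei, which allows up to 167 CPM at 3 counts. The lymphoid levels of sow 2 of L0 and sow 2 of L20 also rest on very few CISH UMIs. They stood at 29.5 against 6.98 CPM in epithelial nuclei at L0, and at 8.79 against 5.17 CPM at L20. In both of these sows the exact Poisson intervals of the lymphoid and epithelial levels overlapped, so counting error alone could hide their order. Against epithelial nuclei the log2 fold change was 2.12 ± 0.33 (SE, n = 10 sows, adjusted p = 1.30e-07, edgeR), from 118 UMIs in 2741 nuclei, and it stayed between 1.89 and 2.32 when each gland was left out. The ratio of CISH in lymphoid to epithelial nuclei was above that of CSN2 in 5 of the 6 sows in which it could be read. In thinned nuclei 3.28% of lymphoid nuclei had a CISH UMI in the median sow, against 0.598% of epithelial and 0.194% of fibroblast nuclei.

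CISH was also high in adipocyte nuclei of sow 2 of L20, which held 333 of the 397 adipocyte nuclei. There 186 UMIs in 333 nuclei gave 122 CPM (95% exact Poisson interval 105 to 141), against 5.17 CPM in epithelial nuclei of the same sow. In the same nuclei JAK2 stood at 124 CPM and STAT5B at 105 CPM, near the level of CISH, while PRLR was at 36.7, STAT5A at 31.5 and ELF5 at 14.4 CPM. Only this sow had at least 20 adipocyte nuclei, so the class has no test, and the interval covers counting error only. Sow 1 of PI2 had 1 CISH UMI in 15 adipocyte nuclei (14.0 CPM, 0.355 to 78.2). Sow 1 of PI7 had 1 in 17 nuclei (18.6 CPM, 0.470 to 103), and sow 2 of PI7 had 0 in 12.

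**Figure D2:**
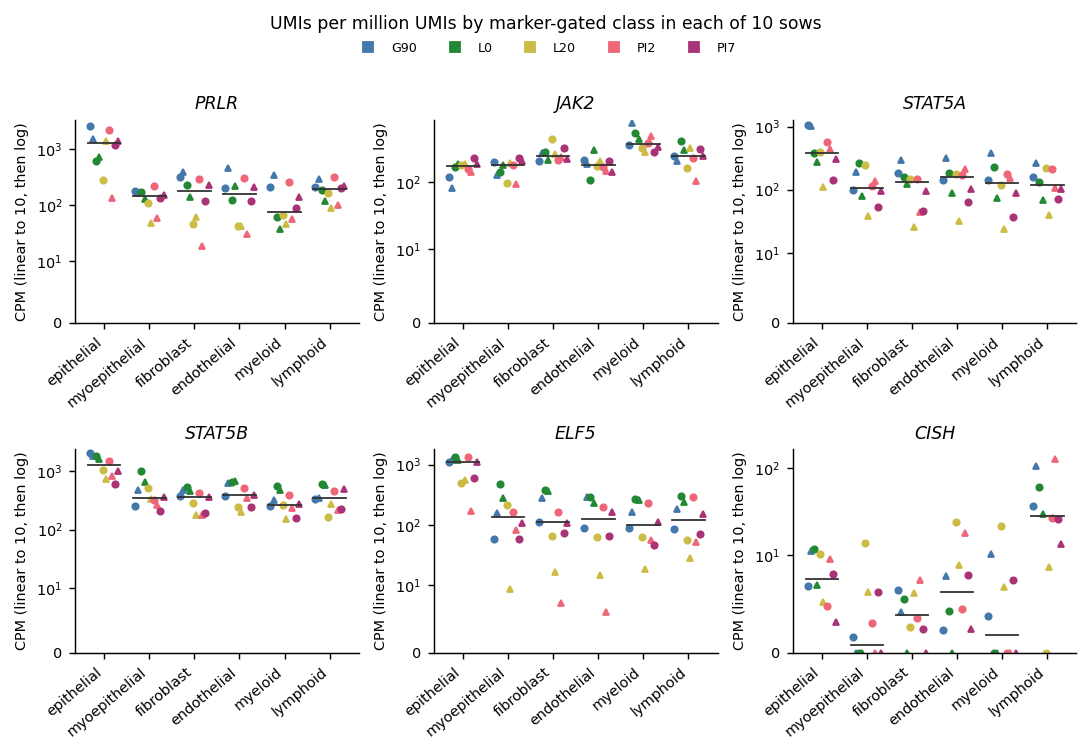
Level of the 6 genes in 6 classes of nuclei (CPM, linear to 10 and logarithmic above), 1 point per sow coloured by stage, with the median of 10 sows as a line. PRLR, ELF5, STAT5A and STAT5B have their highest medians in epithelial nuclei (1282, 1111, 383 and 1273 CPM), JAK2 in myeloid nuclei (377 CPM) and CISH in lymphoid nuclei (28.2 CPM).

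Within the epithelium PRLR rose in nuclei that carried hormone receptor RNA. These were nuclei with at least 2 UMIs of ESR1 or PGR, the receptors of estrogen and progesterone. Both receptors are known from hormone-sensing luminal cells, and neither PRLR nor any other member was used to find the nuclei. There were 2156 such nuclei, 91 to 641 per sow, and they were compared within each sow with 12777 epithelial nuclei that had no UMI of ESR1, PGR, KIT or ALDH1A3. TBX3 (3.5 ± 0.24), ERBB4 (2.80 ± 0.42) and GATA3 (1.49 ± 0.31, all log2, SE), which are known to go with hormone-sensing cells, were higher and called. CITED1, from the same marker list, was mixed, from 0 to 18 UMIs per sow. It stood at 10.1 against 2.86 CPM in sow 1 of G90. In sow 1 of PI2 it was 2.83 against 4.01 CPM, and in sow 1 of PI7 0 against 2.75 CPM. The summed level of FOXA1, TBX3, CITED1 and AREG was low in sow 2 of G90 (29.95 CPM) and in the L0 sows (14.1 and 35.0 CPM) against 160 to 913 CPM in the other 7. CSN3, a milk protein gene, was higher in the ESR1 or PGR nuclei in 2 of 10 sows, those of L0. It stood there at 2731 against 2386 CPM and at 2205 against 1893 CPM. The ESR1 or PGR nuclei of L0 are therefore not called hormone-sensing here. The part of these values in the results was not tested.

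PRLR was higher in ESR1 or PGR nuclei in 10 of 10 sows. The pairs of levels, ESR1 or PGR nuclei first and the others second, were 4921 and 2432 CPM in sow 1 and 1728 and 1493 CPM in sow 2 of G90. They were 683 and 498 CPM and 1064 and 544 CPM at L0, and 1114 and 209.6 CPM and 2811 and 1073 CPM at L20. At PI2 they were 5146 and 1688 CPM and 1723 and 56.9 CPM, and at PI7 4256 and 580.3 CPM and 2342 and 997 CPM. The gap was narrowest in sow 2 of G90 and widest in sow 2 of PI2, the sow whose other epithelial nuclei were nearly without PRLR. Within sows the log2 fold change was 1.71 ± 0.35 (SE, n = 10 sows, adjusted p = 0.00471, edgeR), 1 of 5 tested members called against 3.76% of 8560 genes. It stayed called when each gland was left out, from 1.42 without sow 2 of PI2 to 1.89 without sow 2 of G90. Without the sow as a block it was 1.53 with an adjusted p of 0.149. The ESR1 or PGR nuclei were deeper, with a median of 2150 to 5388 UMIs against 1141 to 2441. After thinning to 1000 UMIs the median share with a PRLR UMI was 69.2% in them and 38.2% in the others.

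ELF5 and STAT5A were lower in ESR1 or PGR nuclei at an adjusted p under 0.05 but within the fold limit, so neither was called. STAT5A was lower in 10 of 10 sows, at -0.60 ± 0.15 on the log2 scale (SE, adjusted p = 0.0138, edgeR). ELF5 was lower in 8 of 10 sows, at -0.68 ± 0.22 (SE, adjusted p = 0.0488, edgeR). The exceptions were the 2 L0 sows, where ELF5 stood at 1345 and 1186 CPM in ESR1 or PGR nuclei and at 1175 and 1121 CPM in the others. In the same 2 sows CSN3 was also higher in the ESR1 or PGR nuclei. The widest gaps were in sow 1 of PI2, with 284 against 1139 CPM, and sow 2 of PI7, with 235 against 1031 CPM. STAT5B (-0.08 ± 0.13) and JAK2 (0.31 ± 0.13) had adjusted p of 0.723 and 0.117, and CISH had too few UMIs to be tested. With a stricter choice of nuclei, added after seeing the data, that asked for at least 2 of ESR1, PGR, FOXA1, TBX3, CITED1 and AREG (826 nuclei), ELF5 was called lower at -1.56 (adjusted p = 0.000413, edgeR) beside PRLR at 2.03. The L0 sows had only 26 and 24 such nuclei. More genes were called in all with this choice than with the main one, and the counts are given below.

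**Figure D3:**
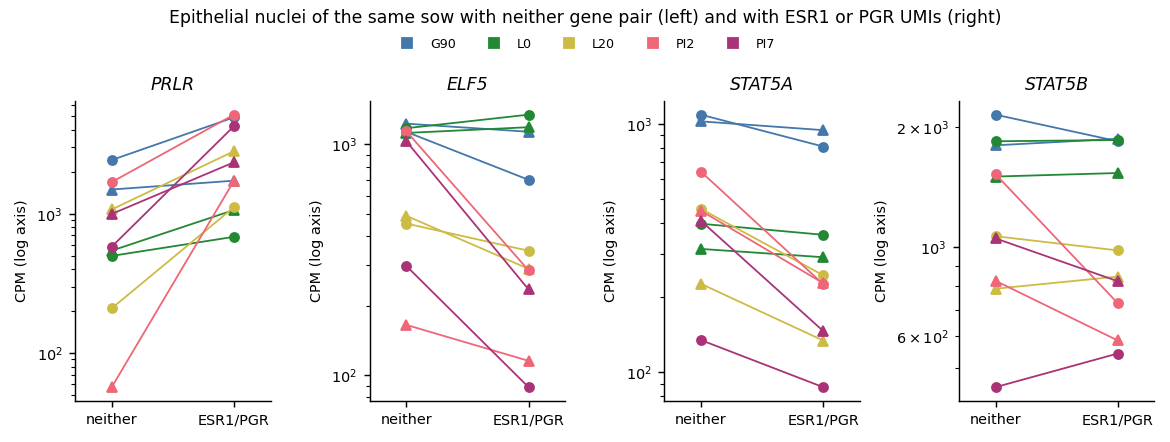
Level of PRLR, ELF5, STAT5A and STAT5B (CPM, logarithmic axis) in epithelial nuclei with none of the 4 genes ESR1, PGR, KIT and ALDH1A3 and in ESR1 or PGR nuclei, joined by a line for each of 10 sows. PRLR rises in 10 of 10 sows, STAT5A is lower in 10 of 10, and ELF5 is lower in 8 of 10.

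Nuclei with at least 2 UMIs of KIT or ALDH1A3, genes known from luminal progenitors, differed little from the other epithelial nuclei. There were 18361 such nuclei, and 0 of 6 members were called by edgeR, against 1.38% of 12636 genes. At an unadjusted p under 0.05 there were 3 of 6 members, beside 3245 of the 12636 genes, and DESeq2 called 0 members. JAK2 was 0.37 ± 0.08 higher (log2, SE, adjusted p = 0.00280, higher in 10 of 10 sows), ELF5 0.34 ± 0.08 (adjusted p = 0.00652, 9 of 10 sows) and PRLR 0.32 ± 0.07 (adjusted p = 0.00231, 8 of 10 sows). The share of KIT or ALDH1A3 nuclei among epithelial nuclei ran from 5.79% in sow 2 of PI2 to 69.7% in sow 1 of the same stage. They were also deeper, with a median of 2090 to 5318 UMIs against 1141 to 2441 in the other epithelial nuclei. The part of depth in these small shifts was not tested.

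The receptor was seen a little more often in epithelial nuclei with ELF5 than in those without it. In nuclei thinned to 1000 UMIs, PRLR was seen in 82.1% of ELF5 nuclei and 74.8% of the rest in sow 1 of G90, and in 36.3% and 31.9% in sow 1 of L0. The share was higher among ELF5 nuclei in 9 of 10 sows, by a few points, and in sow 1 of PI7 it was 45.6% against 51.1%. PRLR UMIs per nucleus were higher in ELF5 nuclei of each G90, L0 and L20 sow, but lower in each involution sow. They were 2.04 against 2.22 and 0.0765 against 0.0910 at PI2, and 0.855 against 1.26 and 1.368 against 1.373 at PI7. Nuclei of 1 sow share their library, so no test was made.

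Across 55 sums of a class in a sow, the level of PRLR followed ELF5 (Pearson r = 0.87), EHF (0.87), PHACTR1 (0.86), GRHL2 (0.83) and CHRDL2 (0.81) most closely among 10083 genes. ELF5 followed EHF (0.91), a related ETS factor, then PRLR (0.87), SLC9A4 (0.87), STAT5B (0.87) and AFMID (0.86). CISH had ARID3B (0.72), JAK1 (0.72), STAG2 (0.68), TXK (0.65) and TRMT11 (0.64). The sums share sows, libraries and classes, and GRHL2 was itself a marker for the epithelial class, so these values are a description of the pattern over classes.

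In milk, epithelial cells held ELF5 at both days, but little PRLR. Colostrum gave 2987 and mature milk 1232 epithelial cells, with a median of 16922 and 2659 UMIs. ELF5 stood at 591 CPM (95% exact Poisson interval 585 to 598) in colostrum and 476 CPM (463 to 490.1) in mature milk. PRLR stood at 22.8 CPM (21.5 to 24.1) and 11.99 CPM (9.92 to 14.4). The depth differed, so shares were read after thinning to 1000 UMIs, in 2940 and 1143 cells. Then 42.8% of colostrum and 41.6% of mature milk epithelial cells had an ELF5 UMI (91.6% and 66.6% before thinning), and 2.96% and 0.787% had a PRLR UMI (25.1% and 6.09% before thinning).

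STAT5A stood at 97.8 CPM (95.2 to 100.4) in colostrum epithelial cells and 23.1 CPM (20.1 to 26.3) in those of mature milk. STAT5B stood at 165 CPM (161 to 168) and 47.5 CPM (43.2 to 52.0), CISH at 33.6 CPM (32.1 to 35.2) and 23.4 CPM (20.4 to 26.6), and JAK2 at 14.8 CPM (13.8 to 15.8) and 18.0 CPM (15.5 to 20.9). The STAT5 genes and CISH were thus lower in mature milk and JAK2 higher in these libraries, with intervals that did not overlap for STAT5A, STAT5B and CISH and did overlap for JAK2. The share of all genes whose intervals did not overlap is not given here, so this is not read as a trait of the members. CSN2 made up 125456 CPM of the colostrum and 141246 CPM of the mature milk epithelial cells. The intervals cover counting error only, and 1 library per day gives no test of the days.

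Outside the milk epithelium, JAK2 had its highest level in neutrophils among the classes of more than 20 cells. In 10124 neutrophils of colostrum it stood at 234 CPM (95% exact Poisson interval 227 to 242) and in 6331 of mature milk at 312 CPM (302 to 322). ELF5 was at 35.3 and 4.71 CPM in the same neutrophils and PRLR at 4.82 and 1.22 CPM, beside 6381 and 959 CPM of CSN2, which neutrophils are not known to make. In 33 and 56 lymphoid cells CISH had 1 UMI (23.6 CPM, 0.599 to 132) in colostrum and 22 UMIs (253 CPM, 159 to 384) in mature milk. STAT5B had 4 UMIs (94.6 CPM, 25.8 to 242) and 27 UMIs (311 CPM, 205 to 452). The mature milk lymphoid cells had the highest CISH level of any milk class of more than 20 cells, with 9.18 CPM in neutrophils and 11.0 CPM in myeloid cells of the same sample.

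**Figure D4:**
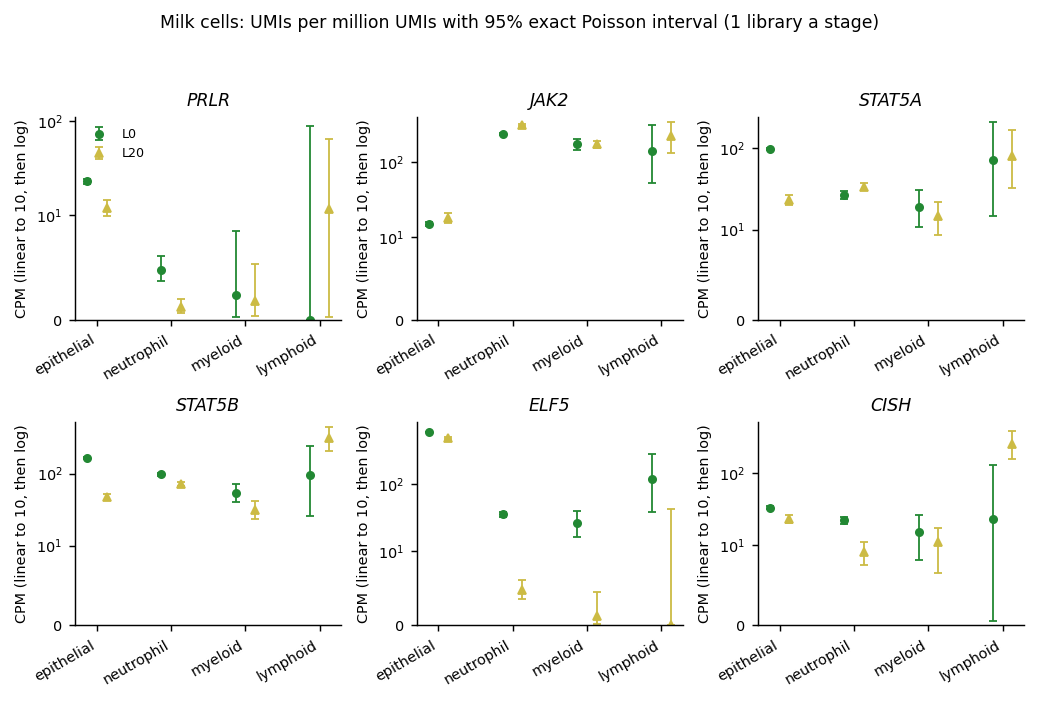
Level of the 6 genes in epithelial, neutrophil, myeloid and lymphoid cells of colostrum (L0) and mature milk (L20), in CPM, with 95% exact Poisson intervals as error bars and 1 library per day. ELF5 is highest in epithelial cells (591 and 476 CPM), JAK2 in neutrophils (234 and 312 CPM), and CISH in lymphoid cells of mature milk (253 CPM).

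In the sections, 5 of 6 members were lower in the PI2 than in the G90 tissue. The share of all genes that were lower is not given here, so this count is not read as a trait of the members. Over 4721 spots at G90 and 2248 spots at PI2, PRLR stood at 56.4 CPM (95% exact Poisson interval 54.2 to 58.7) and 11.5 CPM (9.99 to 13.2). STAT5A stood at 514 CPM (508 to 521) and 240.1 CPM (233 to 247), STAT5B at 366 CPM (361 to 372) and 113 CPM (108 to 118), and ELF5 at 141 CPM (137 to 145) and 52.2 CPM (48.9 to 55.7). CISH stood at 41.7 CPM (39.8 to 43.6) and 22.2 CPM (20.1 to 24.5), and JAK2 at 9.76 CPM (8.85 to 10.7) and 11.6 CPM (10.0 to 13.2), the member whose intervals overlapped. CSN2 fell from 47.0 CPM to 0.391 CPM over the same spots. A spot holds several cells, and 1 section per stage gives no test, so that stage, animal and the share of epithelium in the cut tissue cannot be told apart.

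Spots were also put in 3 bins of equal number by the share of epithelial marker UMIs. From the low to the high bin at PI2, ELF5 went from 37.7 CPM (31.5 to 44.9) to 61.2 CPM (55.5 to 67.2) and STAT5A from 169.8 CPM (156 to 184) to 248 CPM (236 to 260). STAT5A was highest in the middle bin, at 265 CPM (253 to 277), so it did not rise steadily. The low bin at PI2 was also shallower, with a median of 3137 UMIs per spot against 7617 in the high bin. At G90 the bins differed less, with ELF5 at 131 CPM (125 to 138) and 145 CPM (139 to 152), and STAT5A at 447 CPM (435 to 460) and 552 CPM (540.04 to 564). PRLR at G90 was 53.3 CPM in the low and 56.5 CPM in the high bin, with intervals that overlapped (49.1 to 57.7 and 52.7 to 60.5). In each bin PRLR, ELF5, STAT5A and STAT5B of the G90 section lay above those of the PI2 section.

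**Figure D5:**
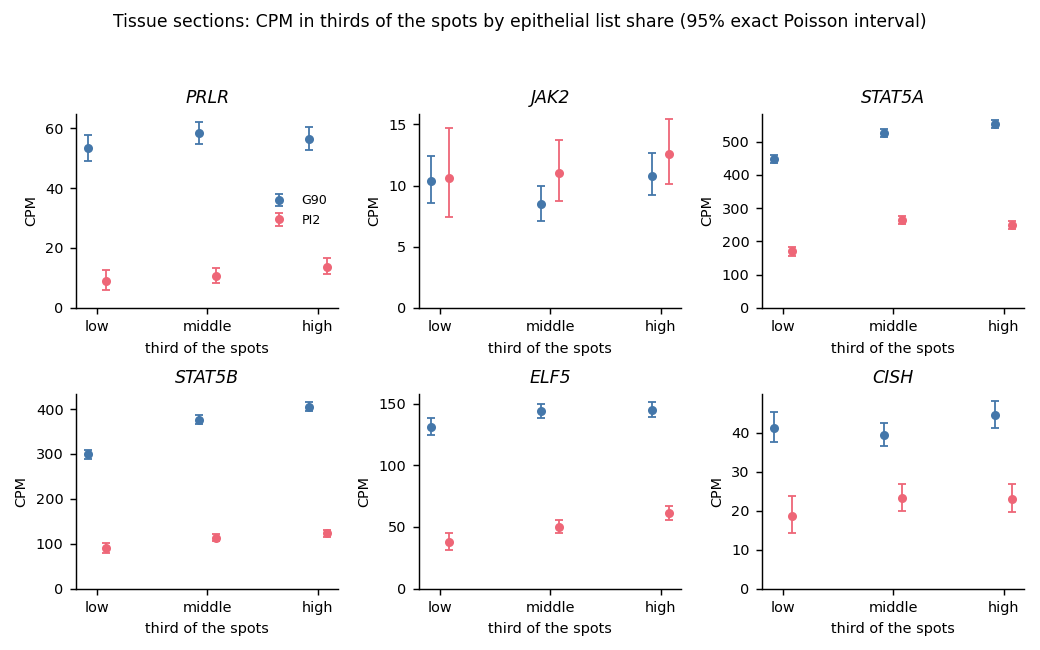
Level of the 6 genes in Visium spots at G90 and PI2 (CPM), in 3 bins of spots with a low, middle and high share of epithelial marker UMIs, with 95% exact Poisson intervals and 1 section per stage. STAT5A lies between 447 and 552 CPM at G90 and between 169.8 and 265 CPM at PI2, and JAK2 between 8.46 and 12.6 CPM in all bins.

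Of 59 other genes of the pathway, 56 were found in the files, and 51 were tested between cell classes. In lymphoid nuclei 9 of the 51 were called higher than in epithelial nuclei and 14 lower, where 34.6% of all genes were called, 2101 higher and 2447 lower. The 9 held the cytokine receptor chains IL2RA (3.68), IL2RB (6.04), IL2RG (4.27) and CSF2RB (2.09, all log2), the kinase JAK3 (5.52), STAT4 (6.30) and the inhibitor SOCS1 (3.81), beside PTPN6 and ID2. Myeloid nuclei had 7 higher and 17 lower, fibroblast nuclei 8 and 14, endothelial nuclei 9 and 14, myoepithelial nuclei 4 and 13, and mural nuclei 1 and 10. The shares of all genes called in these classes were 31.7%, 27.3%, 27.4%, 20.9% and 20.4%, in the same order, and no test set the pathway genes apart from them. GHR, the growth hormone receptor that signals through the same JAK2 and STAT5 proteins, was called higher in fibroblast (2.53 ± 0.26), endothelial (2.39 ± 0.26) and myoepithelial nuclei (1.45 ± 0.27, log2, SE). Among STAT5 targets, 7 of 11 tested were lower in lymphoid nuclei, with the casein genes CSN1S1 (-3.40) and CSN2 (-2.63) among them. In ESR1 or PGR nuclei 2 of 40 tested pathway genes were called, GATA3 and ERBB4, against 3.76% of all genes, and in KIT or ALDH1A3 nuclei 0 of 45 were called by edgeR, against 1.38%. PRL, the gene of prolactin itself, gave 2 to 94 UMIs per gland.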

How the data were processed

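Nuclei of 10 glands, cells of 2 milk samples and spots of 2 sections were used. The authors deposited whole UMI counts per gene and barcode, without normalization. For nuclei and milk cells the counting tool was CeleScope v1.1.7 and the genome Sscrofa11.1. Per the labels Space Ranger 1.2.0 and Seurat 4.3.0 were also used upstream. The annotation release and any removal of free RNA or doublets are not given in the sources used here, and no doublets were removed here. Library totals before filtering were 18962138 to 53165191 UMIs for glands, 46923887 and 84971814 for milk, and 17906403 and 42815421 for sections.

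Nuclei and cells were kept from 300 genes upward and up to 25% mitochondrial UMIs. A nucleus joined a class when it had at least 2 different markers of the class list and every other list had at most 1 UMI for each 3 of that list. UMIs were summed per sow and class with at least 20 nuclei. Sums were tested with edgeR 4.0.16 (R 4.3.3, quasi-likelihood, TMM, filterByExpr), over 5 stages in 1 fit or within sows with the sow as a block, with Benjamini-Hochberg adjustment over all genes tested. A call needed an adjusted p under 0.05 and an absolute log2 fold change over 1, the latter not for the test over any stage. The spread in a test between stages is that between the 2 sows of a stage. In a test within sows it is how the difference between classes or sets of nuclei varied from sow to sow. The steps were also run on simulated data in which all genes had the same spread. The outcome is not given here and is not used as support for any test. Single libraries have exact Poisson intervals at 95%, and intervals and the limit of 3 counts for a count of 0 cover counting error only.

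The members and lists were chosen with earlier results of these data known. Genes named are the members, the genes of the pathway lists that were called or are needed to read a member, and the 5 genes most like PRLR, ELF5 and CISH by Pearson correlation of log2(CPM + 1) over sums of at least 50 nuclei, with a mean of at least 10 CPM. STAT3 is on those lists and was singled out once its values were known.

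Alternatives were DESeq2 1.42.0, no filter on low counts, the replicate number as a block, library totals without TMM, at least 3 or 1 markers, at least 500 genes with at most 5% mitochondrial UMIs, at least 3 or 1 UMIs for the nuclei named by a gene pair, no sow as a block, and each gland left out. Sows with the same number at different stages are different animals, and their deviations from the stage means correlated from -0.44 to 0.26, so the numbers do not pair them.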

Additional observations from a re-analysis of the deposited data

Results flagged for a closer look

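Mean log2 ratios of a gene pair of nuclei to the other epithelial nuclei had opposite signs in both sows of some stages. These differences between stages were not tested, and each mean comes from 2 sows. For ELF5 in ESR1 or PGR nuclei the mean was 0.14 at L0, with both sows above 0, and -0.40 at G90, -0.58 at L20, -1.26 at PI2 and -1.94 at PI7, with both sows below 0 at each. For STAT5B in ESR1 or PGR nuclei it was 0.0199 at L0 and -0.78 at PI2. For STAT5B in KIT or ALDH1A3 nuclei it was 0.0573 at L0, -0.0356 at G90 and -0.24 at L20. For CISH in ESR1 or PGR nuclei it was 1.03 at G90 and -0.35 at L0, from few UMIs.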

How the results depend on the processing

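No named value of a member changed direction under an alternative, except the near-zero value of STAT5B in ESR1 or PGR nuclei, -0.08 with all sows, which ranged from -0.119 to 0.0161 when each gland was left out and was above 0 without sow 1 of PI2. Of the values of named genes under alternatives, 717 kept their direction and their side of the threshold, 6 came past it and 13 lost it. The cause was not tested.

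Between stages the number of calls depended on the tool. In epithelial nuclei over any stage, DESeq2 called 2 members and 2209 genes, no filter on low counts 1 and 1680, and at least 1 marker gene 76 genes, against 0 and 35. For L0 against G90 DESeq2 called 1 member and 955 genes, no filter 492, at least 1 marker gene 2, and library totals without TMM 0, against 12. DESeq2 and no filter gave 894 and 529 genes for L20 against L0, 6 and 6 for PI7 against PI2, and DESeq2 gave 3 for PI2 against L20, all against 0. In the whole gland DESeq2 and no filter gave 1544 and 614 genes over any stage, 392 and 33 for L0 against G90, 1157 and 269 for L20 against L0, 17 and 3 for PI2 against L20, and DESeq2 gave 13 for PI7 against PI2, all against 0. With the replicate block 0 genes were called in epithelial nuclei over any stage and for L0 against G90, and the numbers do not pair the sows, so this is not read as a weaker effect. The block changed no call of a member. DESeq2 was not run between stages in the other classes.

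Leaving out each gland gave 0 to 1 members and 0 to 723 genes over any stage in epithelial nuclei, with 0 genes without either L0 sow or sow 2 of PI7, 6 without sow 1 of PI7, 69 and 64 without sow 1 and 2 of L20, and 723 and 397 without sow 1 and 2 of PI2. It gave 0 to 174 genes for L0 against G90 and 0 to 65 for L20 against L0, and 0 to 136 and 0 to 15 genes in the whole gland over any stage and for L20 against L0.

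Between classes, at least 1 marker gene gave 1205 (myoepithelial), 2107 (fibroblast), 135 (mural, with 1 member), 1767 (endothelial), 2527 (myeloid) and 2929 genes (lymphoid), against 2751, 3582, 2675, 3599, 4169 and 4548, and at least 3 marker genes gave 1624 in mural nuclei. For ESR1 or PGR nuclei, no sow as block called 0 members and 116 genes, at least 2 of 6 hormone-sensing genes, an alternative chosen after seeing the data, 2 and 834, no filter 909 genes, at least 3 UMIs 499 and at least 1 UMI 196, against 1 and 322. For KIT or ALDH1A3 nuclei, at least 3 UMIs gave 266 genes, at least 1 UMI 60 and no sow as block 3, against 174, and leaving out each gland gave 54 to 252, the lowest without sow 1 of PI7.

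Depth limited CISH, with 1209 UMIs in all epithelial and 118 in all lymphoid nuclei, and 2 sows per stage limited every test between stages.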

Other observations

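STAT3, the STAT factor known for its part in involution, stood high in epithelial nuclei of the 2 sows in which PRLR and ELF5 were lowest. Its epithelial level was 1100.1 CPM in sow 1 of L20 and 996 CPM in sow 2 of PI2, against 174 to 523 CPM in the other 8 sows. In those 2 sows PRLR was at 286 and 136 CPM, the lowest values of all, and ELF5 at 504 and 169 CPM, also the lowest. Sow 2 of L20 had ELF5 close to that of sow 1, but its PRLR was far higher and its STAT3 was among the other 8. In sow 1 of L20 and sow 2 of PI2 the STAT5 genes did not share this rank. STAT5A, at 389 and 434 CPM, and STAT5B, at 1047 and 825 CPM, were neither the lowest nor the highest of their ranges. The gene was picked after its values were seen, so no test is given.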
